A study of Homo sapiens with 4 samples.

Results

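The untreated control library, 1 of the 4 libraries of the series, was taken alone and its gene models were ranked by value to describe what A549 cells expressed before any treatment. A549 is an established human lung cancer cell line, grown from an adenocarcinoma and often used as a model of the alveolar epithelium. The library held values for 42113 gene models, of which 14600 were detected, meaning at least 10 sequenced fragments. RNA was sequenced from A549 cells that stably carried a lentiviral short hairpin RNA (shRNA), a control hairpin or one against LIMA1, an actin-binding protein also called EPLIN. Both cell populations were kept without drug or with 10 µM nutlin-3a, an inhibitor of MDM2, and were collected at 24 h. The library described here came from control shRNA cells without nutlin-3a. Each other group also had 1 library: LIMA1 shRNA cells without drug (the LIMA1 shRNA library below), control shRNA cells with nutlin-3a (the nutlin-3a library) and LIMA1 shRNA cells with nutlin-3a (the combined library). Where 4 values are given in a row, they follow this order, control first. The sample titles write si where the protocols write shRNA, and every group shared the A549 background, the lentiviral vector and the serum-containing medium. No library had a replicate, so no test was made. Intervals given below are exact 95% Poisson intervals of the fragments and cover counting error only, since the fragments carry no molecular identifiers.

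Alveolar type 2 cells secrete surfactant, a film of lipids and surfactant proteins that keeps the air spaces open, and they are the epithelium with which A549 is usually compared. NRF2 is a transcription factor that switches on genes for glutathione and thioredoxin metabolism, NADPH production, iron storage and the reduction of quinones and carbonyls; KEAP1 normally marks it for destruction. A549 is known to carry an altered KEAP1 gene, altered STK11 and SMARCA4 genes and a deletion that takes in CDKN2A. Aldehyde dehydrogenases and aldo-keto reductases convert reactive aldehydes and ketones into acids and alcohols, and both enzyme families have members that respond to NRF2.

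The library comprised 16.7 M fragments, and the others 15.2 to 16.5 M. A normalized fragment count, called the value here, is the number of fragments assigned to a gene model divided by 1 size factor for the library, and 1 fragment was worth 0.943. Values are not divided by gene length. Where levels of different genes are compared, the value was divided by the length in kb of the longest GENCODE transcript of the gene and is given as a per-kb level. Detection took in 34.7% of all gene models and 66.4% of the 18903 models with a protein-coding name. A further 25696 models, 61% of all and 29.5% of the protein-coding ones, were at the floor of 3 fragments or fewer. This is a value of at most 2.83, and 20675 of these models were at 0. Counts of protein-coding list members below are to be read beside these shares, 66.4% for detected and 29.5% for floor members. A count near its share is not a result about the list. LIMA1 itself had a value of 416 (378 to 456), 68.3, 866 and 133 in the control, LIMA1 shRNA, nutlin-3a and combined libraries. It was lower in the LIMA1 shRNA library than in the control library with and without nutlin-3a, the direction the labels give.

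Metabolic, cytoskeletal and detoxification genes were prominent among the highest values of this library. ALDH1A1, the aldehyde dehydrogenase that makes retinoic acid, had the highest value, 213494, or 1.35% of the library. It was followed by GAPDH at 105776, FTL at 95288, PKM at 90489.8 and KRT8 at 67927, which encode a glycolytic enzyme, the ferritin light chain, pyruvate kinase and a keratin of simple epithelia. RNA45S5, the ribosomal RNA precursor, came next at 65635, ahead of AKR1C2, ACTG1, KRT18 and ACTB. The 10 highest models together held 5.54% of the library (5.53% to 5.55%, exact Clopper-Pearson 95% interval), the 100 highest 19.04% and the 1000 highest 49.9%. At the other end, 3832 models with 10 to 99 fragments held 0.863% of the total, while 175 models with at least 10000 fragments held 24.2%.

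**Figure D1:**
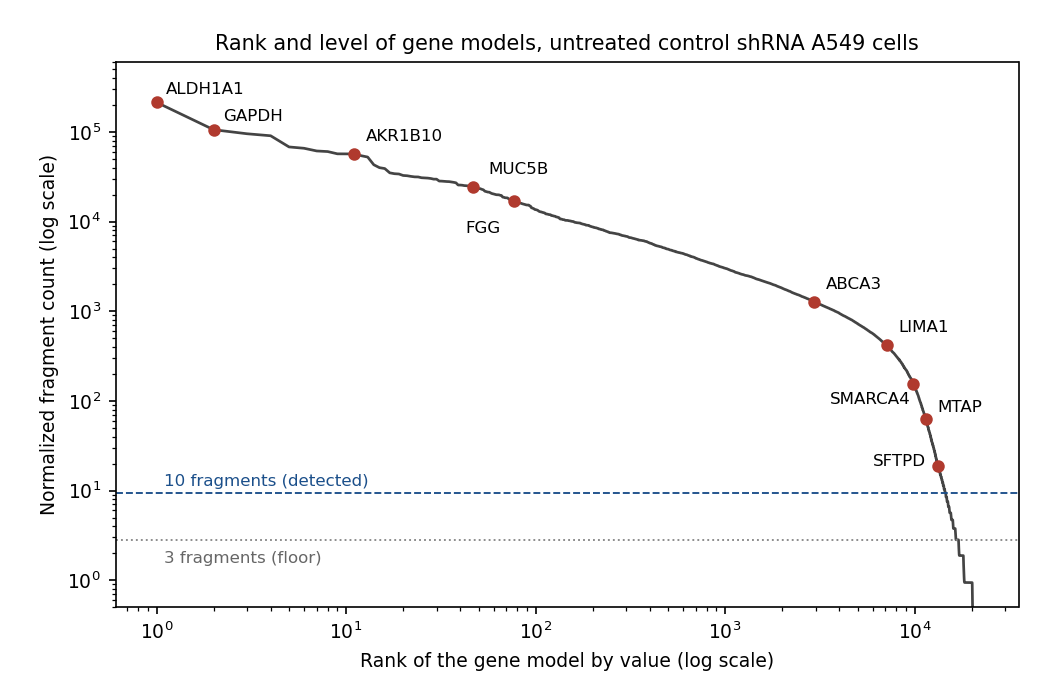
Value of each gene model above 0 (vertical axis, normalized fragment count, log scale) against its rank (horizontal axis, log scale) in untreated control shRNA cells; points mark named genes and lines mark 3 and 10 fragments. The curve runs from ALDH1A1 at 213494 through MUC5B at 24268 and SMARCA4 at 153 to SFTPD at 18.9, close to the detection line.

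Divided by transcript length, the order at the top changed. FTL led with 108529 per kb, followed by ALDH1A1 at 101326, GAPDH at 56414, TMSB10 at 51239 and AKR1B10 at 35688 per kb. TMSB10 encodes a short actin-binding peptide, and its value of 25414 ranked 41 among undivided values. With the median transcript length in place of the longest, ALDH1A1 came first, ahead of FTL, CPLX2, AKR1C2 and GAPDH, so the order of these genes depends on the length used. The median over the 13052 detected models with a length was 123 per kb, with quartiles of 37.2 and 322, and list medians below take in members at the floor unless they are given for detected members.

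The most abundant genes were largely the same in the other libraries. Of the 10 highest models, 9 were also among the 10 highest in the LIMA1 shRNA library, 8 in the nutlin-3a library and 7 in the combined library. ALDH1A1 had values of 193575, 287908 and 225725 in those libraries and ranked first in each of them by share, which ran from 1.19% to 1.83%. GAPDH ranged only from 95177 to 107650 over the 4 libraries, and ACTB from 51501 to 58375.

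Keratins of simple epithelia were abundant, as in many carcinoma lines, so they fit an epithelial label but do not identify A549. KRT8 and KRT18, partners in the filaments of simple epithelial cells, had values of 67927 and 56902, or 23734 and 27252 per kb, and KRT7 had 20084. In the other libraries KRT8 lay between 73787 and 82811 and KRT18 between 55419 and 70306. KRT81, a hair keratin by name, reached 7936, and KRT19, a keratin of many ductal epithelia, 1278. Of the 62 keratin models in the file, 15 were detected and 46 were at the floor. Keratins of stratified epithelia varied: KRT5 had 3.77, KRT17 1.89, KRT6A 22.6 and KRT15 47.1, whereas KRT4 had 575, KRT10 717 and KRT80 1672.

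Epithelial junction genes, listed together with regulators of epithelial cells, were expressed, with gaps among the regulators. Of 23 genes in this list, 20 were detected, which compares with 66.4% of protein-coding models. The list median was 56.2 per kb. CLDN2, a pore-forming claudin of leaky epithelia, had a value of 10208, and the desmosomal genes JUP, DSG2 and DSP had 6577, 5356 and 3461. CDH1, the E-cadherin of adherens junctions, had 2603. EPCAM, a surface marker of many carcinomas, had 229 in this library and 82.1, 111 and 31.1 in the others. ESRP1, a splicing factor of epithelial cells, had 18.9 (20 fragments), its partner ESRP2 5.14, not a whole number of fragments, and GRHL2, a transcription factor of epithelial cells, was at 0.

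Mesenchymal genes were present beside them. VIM, the intermediate filament protein vimentin, had a value of 12626, or 4736 per kb, and fibronectin (FN1) had 7029.9; in the other libraries FN1 reached 12371, 8645 and 19376. ZEB1, a repressor of E-cadherin, had 457 and CDH2, N-cadherin, 369. Of the fibroblast markers, COL1A1 had 70.7 and LUM 51.8, COL3A1 was at 9.43, and COL1A2 was at 0; DCN, PDGFRB and PDGFRA had 1 to 7 fragments. ACTA2 is reported as uncertain, because its value of 118 was not a whole number of fragments.

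Most alveolar type 2 genes, among them those of the main surfactant proteins, were at the floor. Of 16 genes listed for it, 7 were detected and 9 were at the floor, and the median over all 16 was 0.590 per kb (1.34 in the LIMA1 shRNA library). Over the 7 detected members the median was 119 per kb, near the 123 of all detected models. SFTPA1, SFTPA2 and SFTPB, which encode surfactant proteins, were at 0, and SFTPC had 1 fragment. The transcription factor NKX2-1, the phosphate carrier SLC34A2, the claudin CLDN18 and the protease precursor PGC were at 0, and LAMP3, a lamellar body protein, had 1 fragment. A count of 0 is read here as at most 3 fragments, a value of 2.83, and the exact two-sided interval of a 0 reaches 3.48. Neither limit covers fragments that near-identical genes share. Such sharing was not tested for SFTPA1 and SFTPA2. In a bulk library a lower level in every cell and expression in fewer cells cannot be told apart.

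Of the detected alveolar type 2 genes, those with the highest values serve lipid handling and regulation. LPCAT1, which remodels surfactant phospholipid, had values of 1925, 1479, 2226 and 1697 in the control, LIMA1 shRNA, nutlin-3a and combined libraries. ABCA3, the lipid pump of lamellar bodies, had 1276, 1152, 1505 and 1366 in the same order. ETV5, a transcription factor, had 1014, 1515, 704 and 838. These 3 genes were above 700 in every library. CTSH, a protease that processes surfactant protein B, followed at 260, and MUC1 at 121. SFTPD had 18.9 (11.5 to 29.1) here and 3.96, 52.6 and 19.3 in the others, and NAPSA, a type 2 cell protease, had 18.9, 5.94, 23.8 and 17.2. Both stayed low in all 4 libraries.

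Genes of other lung and airway lineages were detected in part, and many of their defining markers were low. Of 12 alveolar type 1 genes 7 were detected, led by the caveolae gene CAV1 at 754 per kb and GPRC5A at 635 per kb. Not divided by length, the defining marker AGER had a value of 17.9 and the water channel AQP5 0.943. Of 9 genes listed for club cells 2 were detected, with values of 575 for KRT4 and 36.8 for BPIFB1. KRT4 is also a keratin of stratified epithelia, so its value does not point to club cells. The other 7 were at the floor, and the list median was 0.434 per kb. FOXJ1, the master regulator of motile cilia, had 1 fragment, and the ciliated list had 6 of 12 genes detected, the highest per kb TPPP3 at 80.4. Of 9 basal cell genes 4 were detected and 3 were at 0, with a list median of 1.49 per kb. TP63 had a value of 151 and SOX2 154, with KRT5 and NGFR below 10 fragments. Endothelial genes were almost absent, with 1 of 9 detected (ESAM at 24.5), and of 17 blood genes 4 were detected. CD68, a lysosomal protein that epithelial cells also carry, led the blood genes at 354 per kb, while PTPRC, the common leukocyte antigen, had 1 fragment and CD3E was at 0.

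Mucus genes stood far above the surfactant genes. MUC5B, a gel-forming airway mucin, had values of 24268, 26820, 29917 and 62248 in the control, LIMA1 shRNA, nutlin-3a and combined libraries. AGR2, the endoplasmic reticulum protein that helps fold mucins, had 21779, 22128, 17387 and 18249. Both were among the 100 highest values in untreated control cells. Per kb of the longest transcript AGR2 was the higher of the pair, 12249 against 1355, but with the median transcript length MUC5B was, at 52642 against 32506. MUC13, a membrane mucin, had 2665, and SPDEF, the transcription factor of goblet cells, 993. The intestinal mucin MUC2 had 5.66, and MUC4 3.77; MUC5AC was not analysed here. In all 8 of 13 goblet and mucus genes were detected, beside 66.4% of protein-coding models.

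Some liver genes, from a list of liver and gut endoderm genes, were expressed beside those of lung and airway. The fibrinogen chains FGB, FGA and FGG, which liver cells secrete for clotting and which lie side by side in the RefSeq order, had values of 22588, 17419 and 16747 in untreated control cells. In the LIMA1 shRNA library they had 14702, 10005 and 10327, in the nutlin-3a library 20552, 20457 and 17501, and in the combined library 13332, 13695 and 11163. All 3 chains were lower in both LIMA1 shRNA libraries than in the control shRNA library of the same treatment. CPS1, the first enzyme of the urea cycle, had 15270, 23830, 15134 and 23779, with the higher values in the LIMA1 shRNA libraries. The 3 fibrinogen genes and CPS1 were among the 100 highest values.

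Of 30 liver and gut genes, 23 were detected, beside 66.4% of protein-coding models. The list median was 29.1 per kb, under the lower quartile of detected models (37.2). Over the detected members it was 64.4 per kb, against 123 for all detected models. The hepatic regulator HNF4A had a value of 1371, and FOXA1 and FOXA2, which open chromatin in endoderm, 891 and 442. FGL1, a fibrinogen-like liver protein, had 2487 and APOH, a plasma glycoprotein, 884. The program was partial, since ALB, albumin, had 8 fragments, the carrier TTR 2, and APOA1 and APOB were at 0. SERPINA1, the plasma protease inhibitor of liver, had 117 and SERPINA3 40.5. More widely, 27 of 36 complement and coagulation genes were detected, with TFPI2, an inhibitor of tissue factor, at 4939 and the complement regulators CD46 and CD59 at 9335 and 4713.

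Among neuroendocrine genes, UCHL1, a neuronal ubiquitin hydrolase, had 7967, and CHGB, a granule protein, had 1524 here against 242 in the LIMA1 shRNA library, 1629 in the nutlin-3a library and 251 in the combined library. CHGB was thus low in both LIMA1 shRNA libraries. CHGA, the usual serum marker of such cells, had 16.02. In the 13-gene list 8 were detected, beside 66.4% of protein-coding models.

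**Figure D2:**
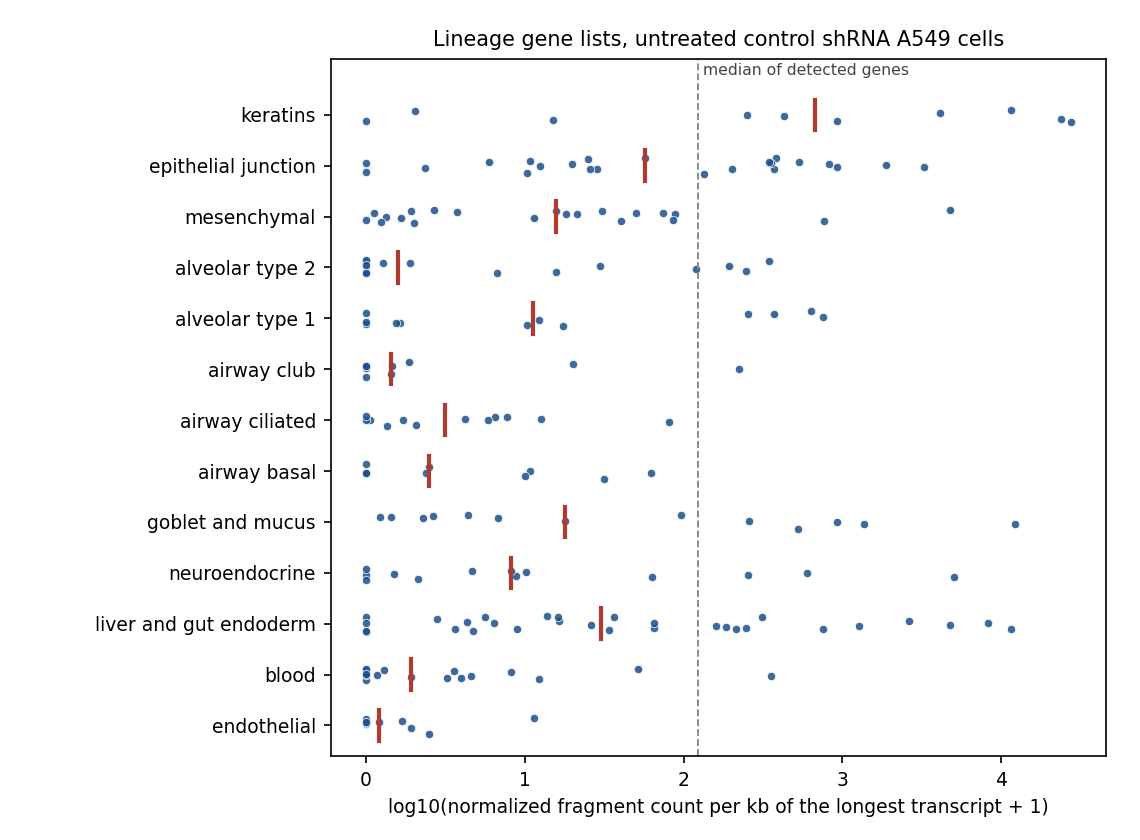
Each point is 1 gene of a lineage list in untreated control shRNA cells (horizontal axis, log10 of the normalized fragment count per kb of the longest transcript + 1) and each bar is the list's median; the dashed line is the median of detected genes, 123 per kb. Keratins reach the far right, with KRT18 at 27252 per kb, whereas 9 of the 16 alveolar type 2 genes lie at or near 0.

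Carbonyl-metabolising enzymes were abundant. The 13 aldo-keto reductases held 1.09% of the library and the 19 aldehyde dehydrogenases 1.64%, with 10 and 16 detected. AKR1C2, a hydroxysteroid dehydrogenase, had values of 61251, 65262, 74633 and 67934 in the control, LIMA1 shRNA, nutlin-3a and combined libraries. AKR1B10, which reduces retinal and lipid aldehydes, had 56744, 48907, 80986 and 73999. AKR1C3, which acts on steroids and prostaglandins, had 28289, 34014, 33474 and 42114. All 3 enzymes were among the 50 highest values in untreated control cells. Per kb of the longest transcript AKR1B10 was above AKR1C2 (35688 against 16308), but with the median transcript length AKR1C2 was above AKR1B10 (91079.9 against 73789), so their order is not fixed by these data.

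Neighbouring members of the same clusters differed widely. AKR1B1, AKR1B10 and AKR1B15 follow each other in the RefSeq order and had 6705, 35688 and 87.7 per kb. Next to AKR1C1, AKR1C2 and AKR1C3, at 1567, 16308 and 15656 per kb, AKR1C4, the liver form, had 28.7 per kb. Its value was 40.5 (29.3 to 54.6); it had 128, 19.9 and 98.6 in the other libraries, higher in both LIMA1 shRNA libraries. AKR1E2, at the other end of that cluster, had 94.0 per kb. AKR1C1, with a value of 10506, and AKR1C2 are near-identical in sequence, so how their fragments were divided is uncertain. Outside the clusters, AKR1A1 had 1081 and AKR7A2 637, and AKR1D1, AKR7A3 and AKR7L had 1 fragment each.

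Among aldehyde dehydrogenases, ALDH3A1, an enzyme abundant in the cornea, was the second after ALDH1A1 on both scales, at 22883 and 10673 per kb. Its values in the LIMA1 shRNA, nutlin-3a and combined libraries were 20011, 121294 and 115255, so it was high in both nutlin-3a libraries. ALDH3A2 had 5207 and the mitochondrial ALDH2, which clears ethanol-derived acetaldehyde, 4359. The other retinal-oxidising forms were low, ALDH1A3 at 134 and ALDH1A2 at 3.77. ALDH8A1 had 2 fragments.

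All 42 listed NRF2 and antioxidant genes were detected, and 24 of them were among the 1000 highest values, where 5.21% of protein-coding models lay. Their median was 1113 per kb, and together they held 2.92% of the library. The list was drawn up from known targets and partners with earlier results of these data in view, so the share is a description. Highest per kb after FTL were FTH1, the ferritin heavy chain, at 20271, the peroxide-removing enzyme PRDX1 at 14242, GPX2 at 13924, NQO1 at 13389 and PGD at 12879.9. NQO1, which reduces quinones, had values of 38988, 36684, 45121 and 40002 in the control, LIMA1 shRNA, nutlin-3a and combined libraries. TXNRD1, thioredoxin reductase, had 34154, 27504, 41342 and 34168. Both were within the 20 highest values here. GPX2, an epithelial glutathione peroxidase, had 15790, 18680.2, 34108 and 38142, with the higher values in the nutlin-3a libraries.

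The genes of glutathione supply lay lower. SLC7A11, the cystine carrier, had a value of 6628, or 687 per kb, and GCLC and GCLM, the subunits of the enzyme that begins glutathione synthesis, had 831 and 470 per kb. HMOX1, haem oxygenase, had 1610 here and 904, 2253 and 1519 in the other libraries. NFE2L2, which encodes NRF2 itself, had 1942 and KEAP1 1507, at 681 and 510 per kb; both RNAs were thus above the upper quartile of detected models. The lowest members were JAKMIP3, MAFF and CBR3.

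Conjugating enzymes were uneven. GSTP1, the main glutathione transferase of lung, had a value of 10575 and the membrane form MGST1 8773, whereas GSTM1 and GSTT1 were at 0 and GSTA1, a liver form, had 5 fragments; 12 of 21 glutathione transferases were detected. UDP-glucuronosyltransferases, which attach glucuronic acid, had 12 of 21 members detected but a median of 5.08 per kb. UGT1A7, UGT1A6 and UGT1A9 led with 196, 89.2 and 64.8 per kb, values that are uncertain because these genes share exons and were not whole numbers of fragments. Of 13 genes listed for sulfate transfer, 4 were detected. The highest, PAPSS2 at 343 per kb and PAPSS1 at 309, make the sulfate donor and are not sulfotransferases themselves. SULT2B1, a cholesterol sulfotransferase, had 300 per kb and SULT1E1 was at 0.

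Cytochromes P450, the oxidases of the first step of drug metabolism, were in large part at the floor. Of 50 genes in this list 18 were detected and 28 were at the floor, beside 66.4% and 29.5% of protein-coding models. Their median was 0.657 per kb. CYP24A1, which inactivates vitamin D, led the list per kb at 4685, with a value of 15282 (12958, 21098 and 17436 in the other libraries), while VDR, the vitamin D receptor, had 93.3. CYP1B1, which oxidises polycyclic hydrocarbons, had 2423, CYP2S1 1812 and the fatty acid hydroxylase CYP4F11 1084. POR, the reductase that supplies electrons to these enzymes, had 3670.5. CYP1A1, CYP3A4 and CYP2E1 had 3, 4 and 3 fragments, and CYP1A2, CYP2B6 and CYP2D6 were at 0. Of the drug-sensing receptors, AHR had 2442 and the glucocorticoid receptor NR3C1 4968, whereas NR1I2 (PXR) and ESR1 were at 0 and NR1I3 (CAR) was at the floor.

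Efflux pumps of the ABCC family were expressed, with 10 of 12 listed pumps detected. ABCC2, ABCC3 and ABCC1, which export glutathione and glucuronide conjugates, had values of 8873, 6579 and 4674, or 1528, 1151 and 709 per kb. ABCG2 had 229 per kb. ABCB1, the P-glycoprotein pump, had 8.48 per kb and a value of 40.5 (29.3 to 54.6); its values of 42.5, 45.7 and 62.2 in the other libraries were also low.

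**Figure D3:**
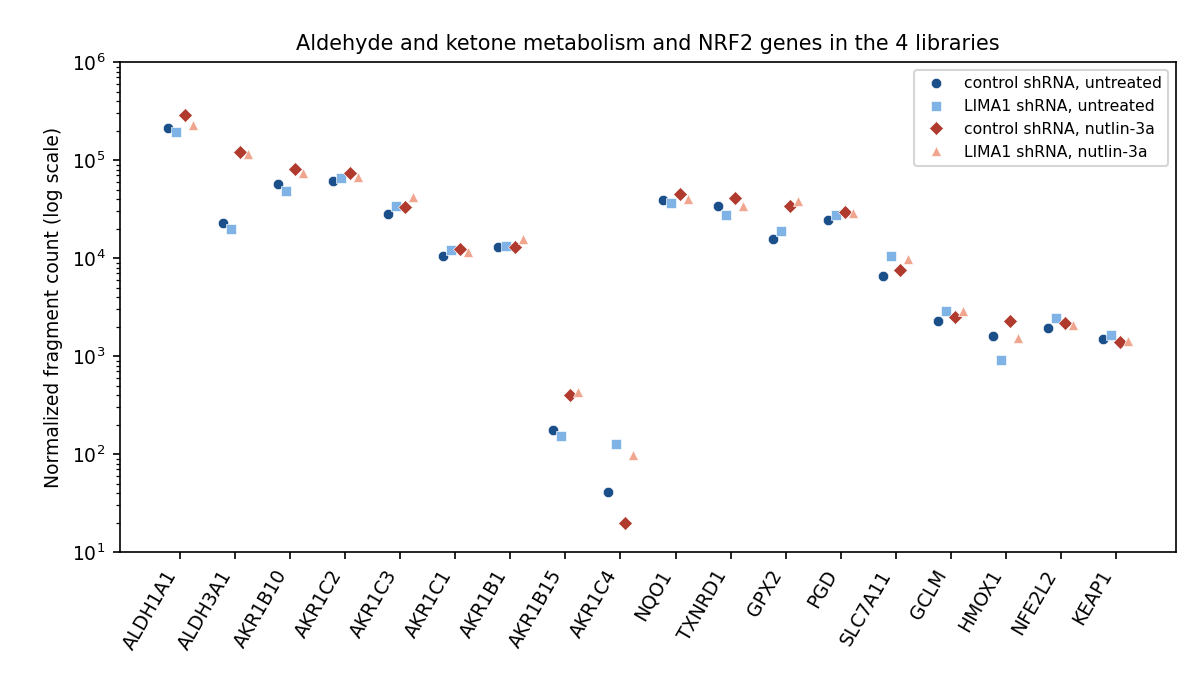
Normalized fragment count (vertical axis, log scale) of aldehyde, ketone and NRF2 genes in each of the 4 libraries, 1 point per library. ALDH1A1 lies highest, between 193575 and 287908, and ALDH3A1 separates into 20011 and 22883 untreated against 115255 and 121294 with nutlin-3a.

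Glycolytic genes were abundant. Of 31 glycolytic genes 23 were detected; they held 2.77% of the library with a median of 407 per kb. GAPDH, PKM, ENO1, LDHA and LDHB had 56414, 30003, 20562, 17791 and 16599.7 per kb. Floor members named here were forms of other tissues: PKLR of liver and red cells, PGAM2 of muscle, and LDHC, PGK2 and GAPDHS of testis, with HK3. HK1, at 407 per kb, was above HK2, at 14.2 per kb, and PFKP, at 2543 per kb, was the leading phosphofructokinase. The glucose carriers SLC2A1 and SLC2A3 had values of 2584 and 2197.

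Pentose phosphate genes, whose oxidative branch makes NADPH, were also expressed. PGD, which makes NADPH there, had values of 24279, 27313, 29231 and 28764 in the control, LIMA1 shRNA, nutlin-3a and combined libraries. TKT, the transketolase of the branch that follows, had 30806, 34689.7, 41810.2 and 42744. Both were among the 50 highest values, and both were lowest in untreated control cells. Per kb they had 12879.9 and 4228. TKTL1 and TKTL2 were at the floor, and 10 of 12 genes of the list were detected.

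Mitochondrial and biosynthetic genes were broadly expressed. In the citric acid cycle list 28 of 29 genes were detected, with a median of 749 per kb, and MDH2, MDH1 and the cytosolic IDH1 led at 2942, 2847 and 2199 per kb; PDHA2, the testis form, was at 0. By name, 85 of 95 oxidative phosphorylation genes were detected, the highest ATP5B at 17626 per kb. All 29 sterol and fatty acid synthesis genes were detected. SCD, which makes monounsaturated fatty acids, had 4463 per kb, ACLY 3805, FADS1 2573 and FADS2 2524. All 21 serine and one-carbon genes were detected, led by AHCY at 3100.3 per kb. Among amino acid genes, SLC7A5 and SLC3A2, the chains of one large neutral amino acid carrier, had 6928 and 5371 per kb. No gene model of the mitochondrial genome was used here.

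Ribosomal protein and growth genes were broadly expressed. Of 84 ribosomal protein models, 79 were detected. The family held 2.77% of the library, with RPL8 at 24095 per kb. RPL10L and RPL3L were at 0, and RPL21, RPS28 and RPS27 had 2, 6 and 8 fragments. Whether fragments shared with copies of these genes lowered such values, and with them the share, was not tested. All 28 translation factors were detected, led by EEF2 at 8828 per kb. EEF1A1 had 3208 per kb and EIF3C had 22 fragments, and sharing with copies was not tested for them either. Of 24 proliferation genes, 23 were detected: PCNA, the clamp of DNA polymerase, had 7157 per kb and TOP2A, which untangles chromosomes, 2103. TOP2A had values of 12109 and 12121 in the untreated libraries and 736 and 646 in the nutlin-3a libraries, so it was high where cells were untreated. CCND1 had 4289.8, and CCND2 was at 0. Of 88 histone models 28 were detected, the highest per kb being H2AFZ, a variant histone, at 3306.

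**Figure D4:**
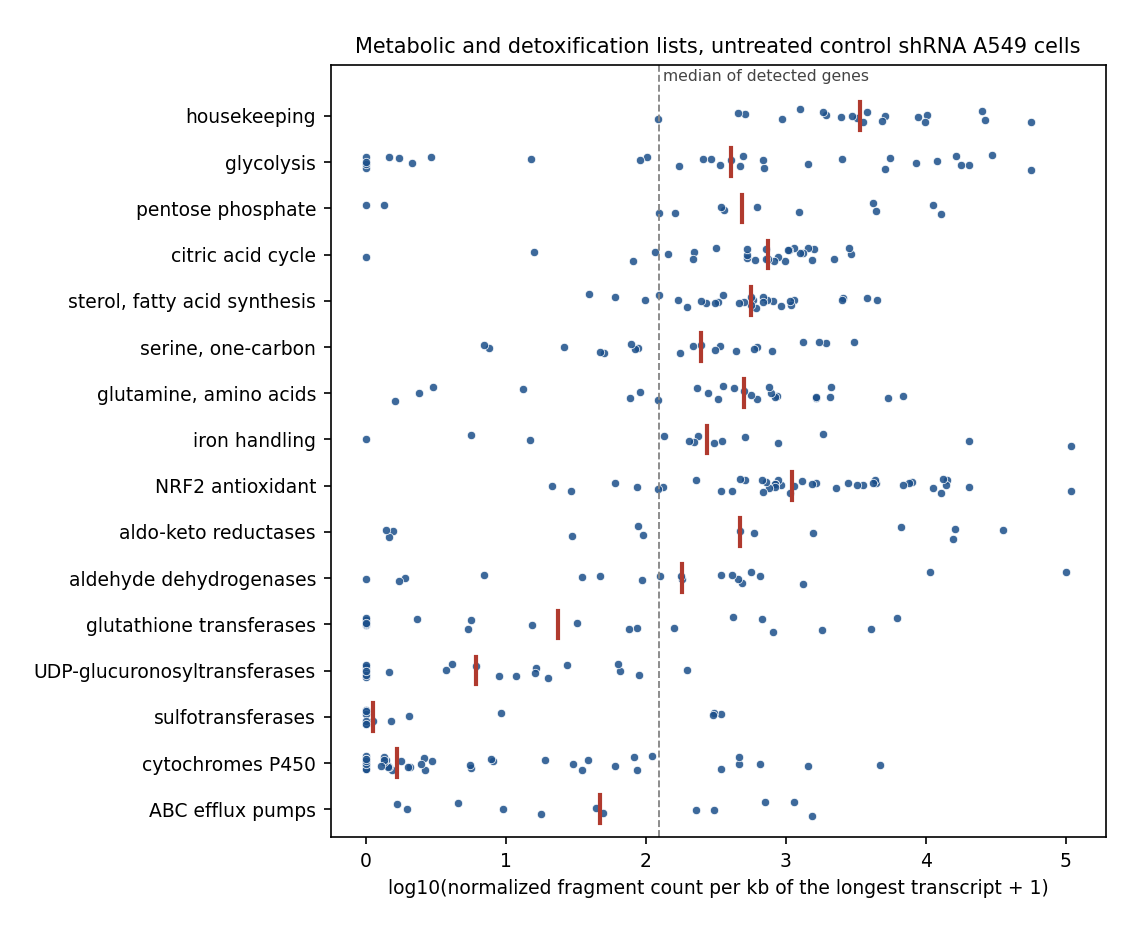
Each point is 1 gene of a metabolic or detoxification list (horizontal axis, log10 of the normalized fragment count per kb of the longest transcript + 1) in untreated control shRNA cells, and bars are list medians; the dashed line is the median of detected genes, 123 per kb. The NRF2 list has no gene at 0, whereas sulfotransferase and cytochrome P450 genes crowd at the left edge.

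CDKN2A, which encodes the cell cycle inhibitor p16 and the protein ARF, had no fragment in any of the 4 libraries. Its neighbours CDKN2B, which encodes the related inhibitor p15, CDKN2B-AS1 and C9orf53 (CDKN2A-AS1) also had no fragment in any library. In the RefSeq order of the short arm of chromosome 9, expressed genes and genes at the floor alternate before this block. MLLT3 and FOCAD had values of 894 and 1352, PTPLAD2 (HACD4) had 14.1, and KLHL9, which lies among the interferon genes, had 1037. The interferon genes IFNB1, IFNW1 and the IFNA family, 15 in all, were at the floor with 1 fragment at most. MIR31HG had 333 and IFNE 14.1.

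MTAP, which salvages methionine and adenine and lies next to C9orf53, was low but not at 0. Its value was 63.2 (48.9 to 80.2) in untreated control cells and 69.3, 55.6 and 61.1 in the LIMA1 shRNA, nutlin-3a and combined libraries, so the 4 libraries gave like values. Per kb of the longest transcript it had 8.36, under the lower quartile of detected models. On the far side of CDKN2B, DMRTA1 had 26.4 (17.5 to 38.1) and ELAVL2, a neuronal RNA-binding protein, 3 fragments. These values do not tell a missing gene from a silent one.

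Of 33 tumour suppressor genes, 30 were detected, with a median of 134 per kb. CDKN2A, CDKN2B and CDH13, a cadherin anchored at the cell surface, were at 0. Per kb, CDH1 and KEAP1 led the list at 533 and 510. NF1, which restrains RAS, had a value of 2789 and ARID1A, a chromatin remodelling subunit, 2019. STK11, the kinase LKB1, had 649, 588, 775 and 864, at 183 per kb, so its RNA was present in every library. RB1 had 1203, RBL2 1540.4, VHL 1131, BAP1 1073, ARID2 1062, TSC2 1031, SETD2 1179, SMAD4 967, ATM 949, APC 793, RARB 665, NF2 642 and TSC1 429.

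SMARCA4 was among the low members. This ATPase of the SWI/SNF remodelling complex had values of 153, 168, 128 and 140 in the control, LIMA1 shRNA, nutlin-3a and combined libraries. Its alternative subunit SMARCA2 had 995, 1381, 1157 and 1355. Per kb the pair had 26.4 and 141, with SMARCA4 under the lower quartile of detected models and SMARCA2 above the median. FBXW7 had 172, RASSF1 258, WT1 98.03, FHIT 33.0 and DLC1 27.3. BRCA1, BRCA2 and RBL1, which are cell cycle regulated, had 1540.2, 355 and 963 here and 100.3, 17.9 and 199 in the nutlin-3a library.

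Growth signalling genes were moderately expressed. Of 36 receptor kinase and RAS pathway genes, 29 were detected, with a median of 104 per kb. MET, the receptor of hepatocyte growth factor, led with 907 per kb and a value of 6017. FGFR4 had 768 per kb, ERBB2 401, ERBB3 260 and EGFR 125. ALK, DDR2 and PDGFRB were at the floor. CDKN1A, a cell cycle inhibitor, had a value of 1066 and MDM2 1844, both outside the 1000 highest values.

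Antigen presentation genes divided by class, with 18 of 26 detected, beside 66.4% of all protein-coding models. B2M, the light chain of class I molecules, had a value of 4677, HLA-C 750 and HLA-B 205. The class II genes HLA-DRA, HLA-DRB1, HLA-DPA1 and HLA-DQA1, their regulator CIITA and the chain CD74 were at the floor. CD274, the checkpoint ligand PD-L1, had 27.3 here and 26.7, 22.8 and 28.9 in the others. Of 22 cancer-testis genes 2 were detected, PRAME at 2359 and MAGEA6 at 993. MAGEA6 is uncertain, since the near-identical MAGEA3 had 3 fragments.

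Of 35 secreted and inflammatory genes 20 were detected. CXCL5, a neutrophil-attracting chemokine, had values of 11670.4, 16519, 7818 and 10463 in the control, LIMA1 shRNA, nutlin-3a and combined libraries. IL18 had 1196, LIF 1021 and EREG 887. IL6, TNF, CSF2, CXCL10 and CCL5 were at the floor. Among noncoding RNAs, NEAT1, a scaffold of nuclear paraspeckles, had 2715 and H19, an imprinted RNA, 1539, while MALAT1 had 217, not a whole number of fragments.

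Bases just before the transcription start differed with level. Sequences were taken from RefSeq on GRCh38.p14, 250 bases before the first listed start of each of 14142 protein-coding genes that matched by symbol and had a length. Promoters rich in CG dinucleotides are typical of genes used in most tissues, and CG-poor promoters of genes used in few. The 4 printed first show the contrast at a glance, with each CG in capitals, 5′ to 3′ on the strand of the gene: the most abundant gene, a highly expressed iron storage gene, a highly expressed fibrinogen gene and a surfactant gene at 0. They lie at chr9:72953054-72953303, minus strand (ALDH1A1), chr19:48965059-48965308, plus strand (FTL), chr4:154562730-154562979, plus strand (FGB) and chr2:85668742-85668991, minus strand (SFTPB).
ALDH1A1: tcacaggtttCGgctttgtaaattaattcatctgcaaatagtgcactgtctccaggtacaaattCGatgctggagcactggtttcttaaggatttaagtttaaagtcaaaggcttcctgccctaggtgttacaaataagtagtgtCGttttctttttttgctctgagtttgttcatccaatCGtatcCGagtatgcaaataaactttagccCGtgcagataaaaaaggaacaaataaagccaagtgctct
FTL: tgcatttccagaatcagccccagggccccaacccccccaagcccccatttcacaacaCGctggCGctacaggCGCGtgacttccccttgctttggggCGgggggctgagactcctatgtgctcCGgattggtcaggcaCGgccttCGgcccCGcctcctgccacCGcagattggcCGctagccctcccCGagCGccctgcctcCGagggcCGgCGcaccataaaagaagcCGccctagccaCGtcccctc
FGB: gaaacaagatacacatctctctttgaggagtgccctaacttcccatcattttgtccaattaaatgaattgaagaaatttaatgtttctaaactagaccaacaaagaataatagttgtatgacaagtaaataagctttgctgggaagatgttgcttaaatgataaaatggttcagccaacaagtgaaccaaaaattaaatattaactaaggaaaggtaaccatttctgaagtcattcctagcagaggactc
SFTPB: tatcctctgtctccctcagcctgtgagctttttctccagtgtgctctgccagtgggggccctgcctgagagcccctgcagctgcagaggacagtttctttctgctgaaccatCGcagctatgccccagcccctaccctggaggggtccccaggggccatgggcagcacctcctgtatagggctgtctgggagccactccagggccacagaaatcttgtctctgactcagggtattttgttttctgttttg

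These windows held 6, 18, 0 and 1 CG, and high level went with both few and many. Over all genes, the median was 5 CG (quartiles 2 and 14) for the 3940 genes at the floor, 10 for genes with 4 to 9 fragments, 19 in the lowest of 4 equal classes of detected genes by per-kb level and 22 in each of the higher ones. The shift was thus between genes at the floor and detected genes and not within the upper levels. Whether the first listed start is the one used in these cells was not tested, and a window at another start could hold a different number of CG. Of the genes with printed windows, FGB, SFTPB and TXNRD1 had 2 listed starts each. Among the 100 genes highest per kb the median was 20.5 CG, and 10 had 5 or fewer, AKR1C3, ANXA1, FGB, KRT8, AKR1C2, FGG, NTS, AGR2, GPX2 and CEACAM6, or 10%, against 53.02% of genes at the floor, 22.3% of all genes and 5.90% in the highest class. They include a pair of aldo-keto reductases, a pair of fibrinogen chains and AGR2.

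Short motifs were searched on both strands of the same windows. GGGCGG, a GC box, was in 32.3% of windows at the floor and 69.7% in the highest class, and CGGAAG, an ETS core, in 8.93% and 33.9%. The TATA box letters TATAAA were in 18.0% at the floor, 5.70% in the highest class and 15% of the 100 highest. The GC box and the ETS core each hold a CG, so the shares of both move with the CG count by construction. A match is a run of letters and does not show that a factor binds.

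The core of the antioxidant response element, TGACNNNGC, to which NRF2 binds with small MAF proteins, was in 11.5% of all windows, 10.6% at the floor and 13.3% in the highest class. Of 32 listed NRF2 genes with a window, 8 held it (25%): GCLM, TXNRD1, GPX2, PGD, ME1, CBR1, CYP4F11 and MAFF. The 4 windows printed next, with the core in capitals on either strand, show where it lies in genes of thioredoxin, peroxide, NADPH and glutathione metabolism: chr12:104215529-104215778, plus strand (TXNRD1), chr14:64942746-64942995, minus strand (GPX2), chr6:83431052-83431301, minus strand (ME1) and chr1:93909431-93909680, minus strand (GCLM).
TXNRD1: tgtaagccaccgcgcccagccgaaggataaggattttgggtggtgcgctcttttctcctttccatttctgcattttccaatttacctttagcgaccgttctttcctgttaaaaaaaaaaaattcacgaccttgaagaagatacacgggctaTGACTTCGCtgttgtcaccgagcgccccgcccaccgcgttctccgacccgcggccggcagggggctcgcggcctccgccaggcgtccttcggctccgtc
GPX2: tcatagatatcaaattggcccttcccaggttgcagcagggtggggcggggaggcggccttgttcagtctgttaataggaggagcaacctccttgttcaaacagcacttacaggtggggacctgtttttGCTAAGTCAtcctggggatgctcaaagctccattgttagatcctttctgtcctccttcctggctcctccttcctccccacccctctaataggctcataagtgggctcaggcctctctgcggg
ME1: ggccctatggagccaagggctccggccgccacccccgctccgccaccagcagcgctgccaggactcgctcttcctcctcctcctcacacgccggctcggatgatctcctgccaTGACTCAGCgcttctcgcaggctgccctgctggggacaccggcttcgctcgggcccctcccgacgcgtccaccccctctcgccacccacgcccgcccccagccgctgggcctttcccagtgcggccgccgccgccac
GCLM: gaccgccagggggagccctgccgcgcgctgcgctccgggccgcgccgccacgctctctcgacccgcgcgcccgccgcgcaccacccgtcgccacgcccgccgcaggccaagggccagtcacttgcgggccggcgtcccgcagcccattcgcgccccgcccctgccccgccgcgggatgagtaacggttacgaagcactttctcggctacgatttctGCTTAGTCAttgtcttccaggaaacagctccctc

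Values of these 4 genes were 34154, 15790, 2423 and 2284, so a core in the window went with levels that differed widely. The other 24 NRF2 genes had no such letters within this window, which says nothing of elements farther away.

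**Figure D5:**
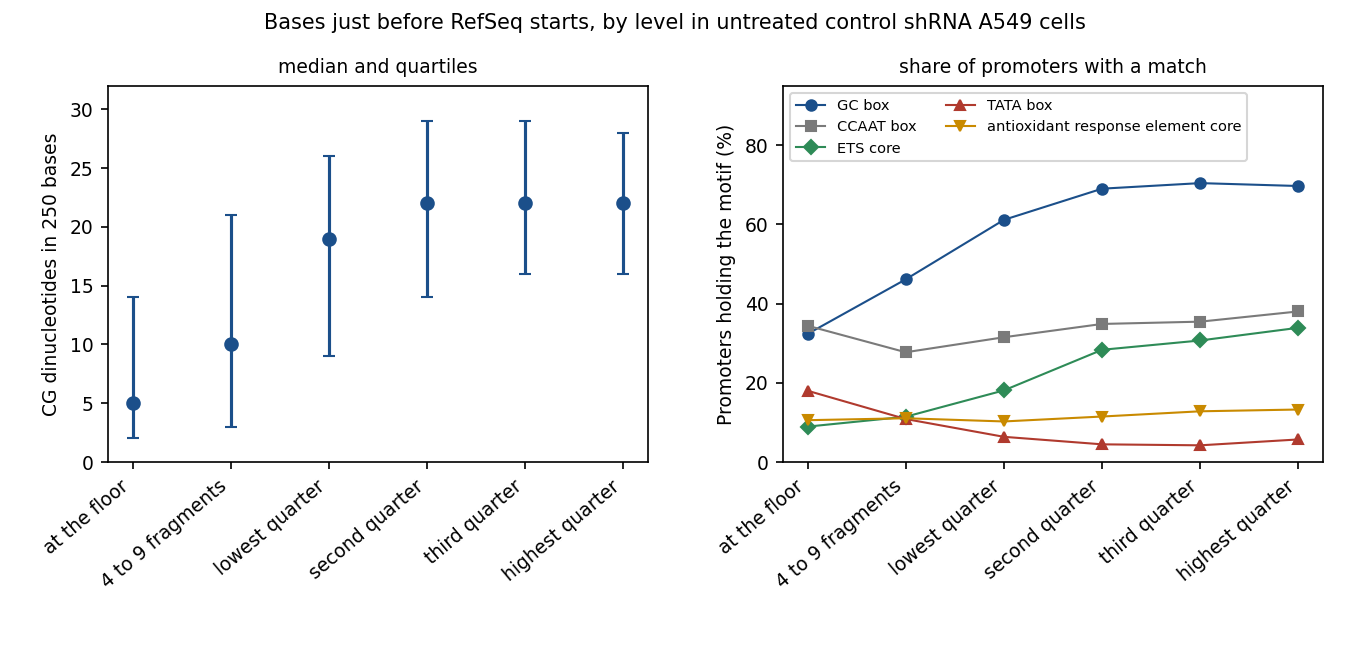
Left, the median number of CG dinucleotides in the 250 bases before the start (bars, quartiles) for genes at each level in untreated control shRNA cells; right, the share of those windows holding each motif (percent). The median rises from 5 at the floor to 22 in the upper classes, and the GC box share from 32.3% to 69.7%.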

How the data were processed

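The deposited files hold, for each of 4 RNA libraries, 1 value per gene model. The authors' values are a signal: fragments per model divided by 1 size factor per library and not by length, as found from the values, since most were whole multiples of 1 step. Between 0.5 and 1000 fragments, 85.5% of 16194 values in untreated control cells lay within 0.1 of a whole number, under the 95% needed to treat them as reads, so no count test was run. bcl2fastq 1.8.3, Bowtie2 2.0.12, Cuffnorm 2.2.1 and hg19 are named, per the submitters' processing notes, without role or order; the gene annotation and strand setting are not given in the sources used here. Groups came from sample titles.

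From these files, the fragments per model, shares of the total and exact intervals were computed (Python 3.11.15, numpy 2.4.6, pandas 2.3.3, scipy 1.17.1, matplotlib 3.10.9); the step finder was tested on simulated data. A gene was detected from 10 fragments and at the floor at 3 or fewer. Lengths are of the longest GENCODE 29 transcript, matched by symbol or, for 511 detected models, through a RefSeq synonym; 13052 of 14600 detected models (89.4%) had one. That reference and RefSeq are on GRCh38, so no positions in the files' build are given. Members and the 42 gene lists (841 genes in the file, 603 detected, 198 at the floor) and 7 name-prefix families were chosen with earlier results of these data known. Named were the 30 highest genes by value and per kb, the 6 highest per kb and up to 6 floor members of each list, all members of the CDKN2A region, aldo-keto reductase, alveolar type 2 and tumour suppressor lists, and up to 10 of the highest unlisted genes; other list members named were chosen after their values were seen, and some genes that the rule names are not reported here. Near-identical genes, overlapping genes and antisense partners can share fragments. Alternatives were other detection limits, length measures and gene sets, and the untreated LIMA1 shRNA library. With 1 library per group there are no replicates.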

Additional observations from a re-analysis of the deposited data

How the results depend on the processing

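The 10 highest models held 5.54% of the library; this was 5.66% without values that were not whole fragments, 5.57% without lnc- and small RNA models, 9.15% as a share of the summed per-kb level and 5.49% in the untreated LIMA1 shRNA library. For the 100 highest, 19.04% became 19.4%, 26.7% and 18.9% without such values, per kb and in that library. The median per-kb level over all list members was 87.6; it was 232 with the median transcript length and 299.7 over detected members only, so per-kb levels rest on the length used. With whole-fragment members only it was 92.1, and in the untreated LIMA1 shRNA library 91.1. Detected models numbered 17090 at a minimum of 3 fragments, 12698 at 30, 13313 without lnc- models and 14259 in the LIMA1 shRNA library; detected list members numbered 656 at 3 fragments, 590 in the LIMA1 shRNA library and 555 at 30, of 841. With the median transcript length, 39 of 42 list medians moved by over 1.5 times. No paired analysis was possible because each group had 1 library and the labels carry no replicate numbers. At this depth genes at 0 may hold up to 3 fragments, a value of 2.83.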

Other observations

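Several genes outside the lists were among the most abundant of untreated control cells. CPLX2, complexin 2, a regulator of vesicle fusion in neurons, had values of 54257, 51743, 46505 and 40485 in the control, LIMA1 shRNA, nutlin-3a and combined libraries, and ranked 12. NTS, which encodes the gut and brain peptide neurotensin, had 19902, 17171, 19445 and 17230, or 16089 per kb here, and ranked 21 by per-kb level. IGFBP4 and IGFBP3, binding proteins of insulin-like growth factors, had 32639.5 and 27359. TGM2, a protein cross-linking enzyme, had 23289, 13320, 33152 and 25487. CA12, a membrane carbonic anhydrase, had 18399, and CEACAM6, a surface glycoprotein of many carcinomas, 17925.

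The annexins ANXA1 and ANXA4 had 34922 and 18430. The processed pseudogene ANXA2P2 had 27865, above its parent ANXA2 at 17121, and RPSAP58 had 9076 beside 3514 for RPSA; fragments of such copies cannot be assigned with certainty. The chaperones HSPA8, HSP90AA1, HSP90B1 and HSP90AB1 had 33907, 30629.8, 28220.6 and 21237. The model lnc-TSC1-1 had 28045 and ranked 33, and no protein-coding name is paired with it in the file. Of 17212 lnc- models, 1287 were detected, and together these models held 1.11% of the library. Metallothioneins, which bind metals, were low: 3 of 10 were detected, led by MT2A at 412. Among 37 serpins, 17 were detected, led by SERPINB1 at 3132.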
